A study of Mus musculus with 6 samples.

Results

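Globin and erythroid genes were followed in bone marrow monocytes from 2 skeletal sites, mandible and femur, as 9 genes picked by name from the 57010 genes of the raw count table. They are the adult globin genes Hbb-bs, Hbb-bt, Hba-a1 and Hba-a2, the heme synthesis gene Alas2, the membrane gene Slc4a1, the transcription factor genes Klf1 and Gata1, and the receptor gene Epor. All 9 were found in the table and all 9 passed the filter on low counts. The femur-derived monocytes gave the libraries S13, S15 and S18 and the mandibular-derived monocytes gave S16, S19 and S23, 3 per site, all without treatment. The animals were C57BL/6 mice of 1 year, which the methods name as C57BL/6J males and females, and the labels give no sex or animal for a library. Marrow was flushed from both bones and monocytes were kept by a depletion step, in which antibody-labelled cells are held on a magnetic column and the cells that pass are kept, so that cells of other types can remain. Since the preparations are bulk cells, fewer cells of a type and less RNA per cell cannot be told apart. Nothing in the labels says whether the libraries of a site came from separate animals, and p-values measure only the spread between these libraries.

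Red cells form in the marrow from progenitors that need erythropoietin, the hormone bound by the receptor that Epor encodes. GATA1 and KLF1 then switch on the genes of the red cell, among them those for alpha-globin and beta-globin, for the heme enzyme ALAS2 and for band 3, the anion exchanger encoded by Slc4a1. Monocytes are not known for making hemoglobin, while the femur of an adult mouse holds much red marrow. Gata1 is not limited to the red cell lineage, being active also in megakaryocytes, eosinophils and mast cells.

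Library totals ran from 15718782 to 25371474 counts. Levels are in CPM, counts scaled to a common library total. A gene with no count could still hold up to 3 counts, a limit for counting error only. On the raw library totals this limit was 0.118 to 0.191 CPM by library. Femur S15 had a count for 40494 genes, against 17481 to 23513 in the other libraries. The ribosomal RNA gene Rn18s-rs5 took 4.81% to 12.2% of the counts. Xist, the X inactivation RNA of female cells, stood at 1441 CPM in mandible S23 and at most 0.553 CPM in each other library, and Alas2 and Gata1 lie on the X chromosome. Monocyte markers (12 genes) were expressed in every library, with a summed level of 3363 to 6467 CPM and none called different between the sites. All CPM except that limit for a gene with no count were scaled by TMM, which adjusts library sizes for differences in composition.

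The beta-globin genes lie side by side on chromosome 7 (GENCODE M21, GRCm38), Hbb-bs at chr7:103826534-103828096 and Hbb-bt at chr7:103812524-103813996, both on the minus strand. The alpha-globin genes lie on the plus strand of chromosome 11, Hba-a1 at chr11:32283511-32284465 and Hba-a2 at chr11:32296489-32297298. The 250 bases before the RefSeq start of each beta-globin gene and of Hba-a1 are shown because these genes were all lower in the mandible. GENCODE M21 places the 5′ end of these genes further upstream, within the stretch shown. They are written 5′ to 3′ on the strand of the gene (RefSeq, GRCm38.p6), with capitals for matches on either strand to a GATA motif (A or T, then GATA, then A or G), to a CACC motif (CCNCNCCC) and to CCAAT. Hbb-bs spans chr7:103827929-103828178, Hbb-bt spans chr7:103813924-103814173 and Hba-a1 spans chr11:32283422-32283671.
Hbb-bs: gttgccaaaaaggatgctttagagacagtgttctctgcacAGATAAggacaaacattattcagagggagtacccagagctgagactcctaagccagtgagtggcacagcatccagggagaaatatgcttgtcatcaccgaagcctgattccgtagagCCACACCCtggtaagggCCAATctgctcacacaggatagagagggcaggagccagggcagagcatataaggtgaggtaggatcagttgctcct
Hbb-bt: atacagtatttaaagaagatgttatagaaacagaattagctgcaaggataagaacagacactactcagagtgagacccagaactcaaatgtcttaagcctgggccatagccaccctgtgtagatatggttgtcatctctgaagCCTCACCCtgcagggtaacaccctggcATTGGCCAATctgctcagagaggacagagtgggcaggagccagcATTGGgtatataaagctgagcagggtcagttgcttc
Hba-a1: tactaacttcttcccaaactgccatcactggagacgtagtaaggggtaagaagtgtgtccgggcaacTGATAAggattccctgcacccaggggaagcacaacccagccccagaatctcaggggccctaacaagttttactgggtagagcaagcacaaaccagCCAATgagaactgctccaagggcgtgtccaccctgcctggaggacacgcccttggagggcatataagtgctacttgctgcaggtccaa
Hbb-bs held a GATA match from 210 to 205 bases before the start, a CACC match from 93 to 86 and a CCAAT match from 76 to 72. Hbb-bt held no GATA match in this window, a CACC match from 107 to 100 bases before the start and 3 CCAAT matches, of which one adjoins another on the opposite strand. Hba-a1 held a GATA match from 183 to 178 bases before the start and a CCAAT match from 88 to 84, and no CACC match. The window of Hba-a2 repeated 297 of the 300 bases that the table holds around the start of Hba-a1, and is not printed. Of the 8 members with a promoter in the table, 6 held a GATA match against 26.5% of 32851 mouse promoters, 5 a CACC match against 45.9% and 5 a CCAAT match against 33.8%. A match is a stretch of letters and not a measured site.

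The adult globins fell in mandibular-derived monocytes. Hbb-bs, a beta-globin gene, stood at 318, 44.0 and 62.1 CPM in femur S13, S15 and S18 and at 31.6, 16.8 and 26.8 CPM in mandible S16, S19 and S23. Its groups did not overlap, and femur S13 was far above the other libraries. The level was 5.64 times lower in the mandible (log2 fold change −2.50, SE 0.64, edgeR quasi-likelihood adjusted p = 0.0489). Hbb-bt, its neighbor with a nearly identical product, stood at 136, 24.6 and 37.5 CPM in the femur libraries and at 7.16, 8.07 and 18.3 CPM in the mandible libraries, in the same order of samples. The groups again did not overlap, with S13 highest, and the fall was 5.92-fold (log2 fold change −2.56, SE 0.61, edgeR adjusted p = 0.0344).

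Hba-a1, an alpha-globin gene, stood at 461, 61.4 and 71.6 CPM in the femur and at 26.9, 16.7 and 31.5 CPM in the mandible. It had the lowest log2 fold change of the 9 members, −2.98 (SE 0.69, edgeR adjusted p = 0.0299), a 7.91-fold fall. Hba-a2, a duplicate of Hba-a1, stood at 133, 27.4 and 31.7 CPM in the femur and at 5.95, 9.21 and 14.9 CPM in the mandible. It fell 6.39-fold (log2 fold change −2.68, SE 0.60, edgeR adjusted p = 0.0254), and neither alpha-globin gene overlapped between the sites. Without femur S13 the log2 fold changes of Hbb-bs, Hbb-bt, Hba-a1 and Hba-a2 were −1.08, −1.48, −1.41 and −1.56, and edgeR's adjusted p was 0.235, 0.212, 0.0653 and 0.140. Each stayed below 0 and none was called. The calls of all 4 globins were also lost without mandible S16, where log2 fold changes were −2.33 to −3.05, and without mandible S19, where they were −2.32 to −2.81. They were lost too with a correction for the trend of each library with gene length, where log2 fold changes were −1.79 to −2.33. Without mandible S23 Hbb-bs and Hba-a1 lost the call (edgeR adjusted p = 0.148 and 0.0900), and Hbb-bt and Hba-a2 kept it. Without TMM scaling Hbb-bs and Hbb-bt lost it (edgeR adjusted p = 0.0663 and 0.0600). Hbb-bs alone lost it with RLE in place of TMM (edgeR adjusted p = 0.0594) and with limma-voom (limma-voom adjusted p = 0.0657). All 4 kept it without femur S15 and without femur S18.

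Reads of a globin pair are partly interchangeable. Of the 50-base stretches of the main Hbb-bs transcript 65.8% occur also in Hbb-bt, and of those of Hba-a2 86.9% occur also in Hba-a1. How reads with several positions were counted is not given in the sources used here, so the split within a pair is uncertain. If such reads were left out, the sums over a pair are too low by an unknown amount, which also enters the shares and ratios that use them.

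**Figure D1:**
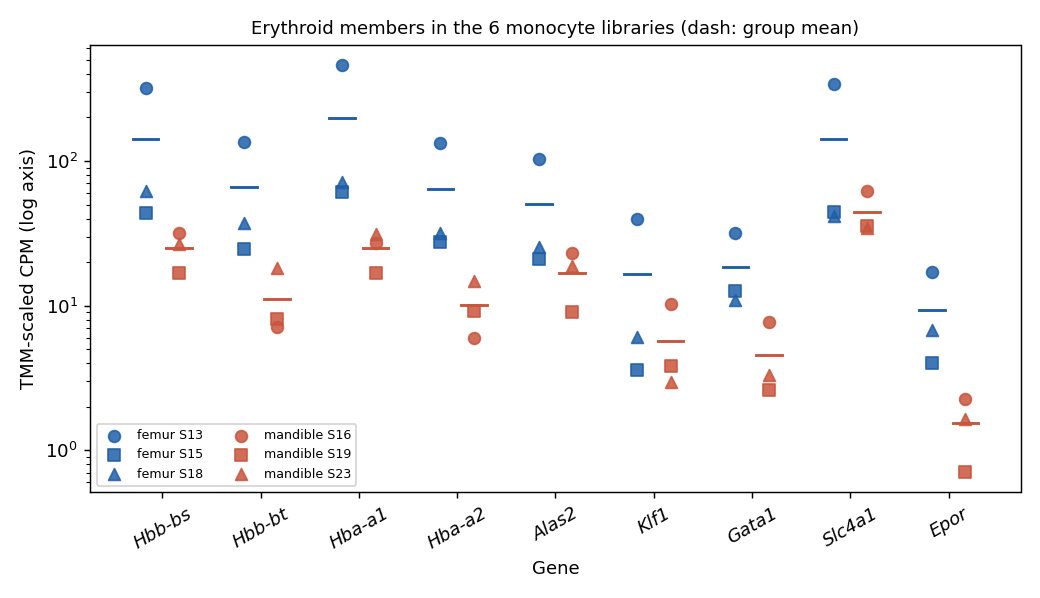
TMM-scaled CPM (log axis) of the 9 members in each library, blue for femur and red for mandible, with a dash at the mean of 3 libraries. All 9 genes were highest in femur S13, and the mandible points lie below all femur points in the 4 globins, Gata1 and Epor.

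Heme synthesis was represented by Alas2, the erythroid enzyme of the first step of the pathway (chrX:150547375-150570638, plus strand). Its level was 104, 20.96 and 25.4 CPM in the femur and 22.97, 8.97 and 18.7 CPM in the mandible, so that mandible S16 lay above femur S15. The log2 fold change of −1.57 (SE 0.58) did not pass the test (edgeR adjusted p = 0.184), and it was −0.45 without femur S13. Slc4a1, for the band 3 protein of the red cell membrane (chr11:102348824-102366203, minus strand), stood at 339, 44.5 and 42.01 CPM in the femur and at 62.4, 35.7 and 34.7 CPM in the mandible. Mandible S16 exceeded femur S15 and S18. Its log2 fold change was −1.68 (SE 0.69, edgeR adjusted p = 0.243) with all libraries and 0.04 without femur S13.

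Of the transcription factor genes, Gata1 (chrX:7959260-7978071, minus strand) stood at 31.8, 12.7 and 10.96 CPM in the femur and at 7.76, 2.61 and 3.32 CPM in the mandible. The groups did not overlap, but the log2 fold change of −2.02 (SE 0.58) missed the threshold (edgeR adjusted p = 0.0786), and it was −1.37 without femur S13. Klf1, for the factor that acts on the beta-globin promoter (chr8:84901928-84905291, plus strand), stood at 39.99, 3.59 and 6.10 CPM in the femur and at 10.3, 3.85 and 2.97 CPM in the mandible. These groups overlapped, with mandible S16 above femur S15 and S18. Klf1 had a log2 fold change of −1.54 (SE 0.83, edgeR adjusted p = 0.423), which became 0.24 without femur S13. Epor, for the erythropoietin receptor (chr9:21958897-21963506, minus strand), had 311, 87 and 154 counts in the femur and 45, 15 and 29 in the mandible, or 17.2, 4.01 and 6.80 CPM against 2.25, 0.712 and 1.66. Its groups did not overlap. Epor had a log2 fold change of −2.59 with the larger SE of 0.76 and was not called (edgeR adjusted p = 0.0822), with −1.81 left without femur S13.

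In all, 4 of the 9 members, the globins, were called lower in the mandible and 0 were called higher, where a call needs an edgeR adjusted p below 0.05 together with a change of 2-fold or more. Of the 18114 genes tested, 5.18% were called in either direction and 1.3% were called lower. At an unadjusted p under 0.05 there were 8 members, all but Klf1, and 2975 of the 18114 tested genes. The 3 mandible libraries lay below the 3 femur libraries in 6 of 9 members, against 11.5% of all tested genes. For these 6 the exact two-sided permutation test gave p = 0.1, the smallest that 3 against 3 libraries allow. The median log2 fold change was −2.50 over the members and −0.04 over all tested genes.

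All 9 members were highest in femur S13, as were 17.6% of the tested genes, and 5 were lowest in mandible S19, as were 7.87%. Femur S13 stood above the mean of femur S15 and S18 by 2.68 times for Gata1, 3.18 for Epor and 4.38 to 4.51 for Hbb-bt, Alas2 and Hba-a2. It stood above them by 6.00 times for Hbb-bs, 6.94 for Hba-a1, 7.84 for Slc4a1 and 8.25 for Klf1. The ratio reached 4 in 7 of 9 members and in 1.39% of tested genes, whose median was 0.947. Without femur S13, 0 of 9 members were called, against 0.308% of genes called lower in that fit. An unadjusted p under 0.05 was then found for 4 members and for 2182 of 20100 tested genes. The median over the members was then −1.37, with a range of −1.81 to 0.24. Thus 7 of 9 members remained below 0, and Klf1 and Slc4a1 did not.

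**Figure D2:**
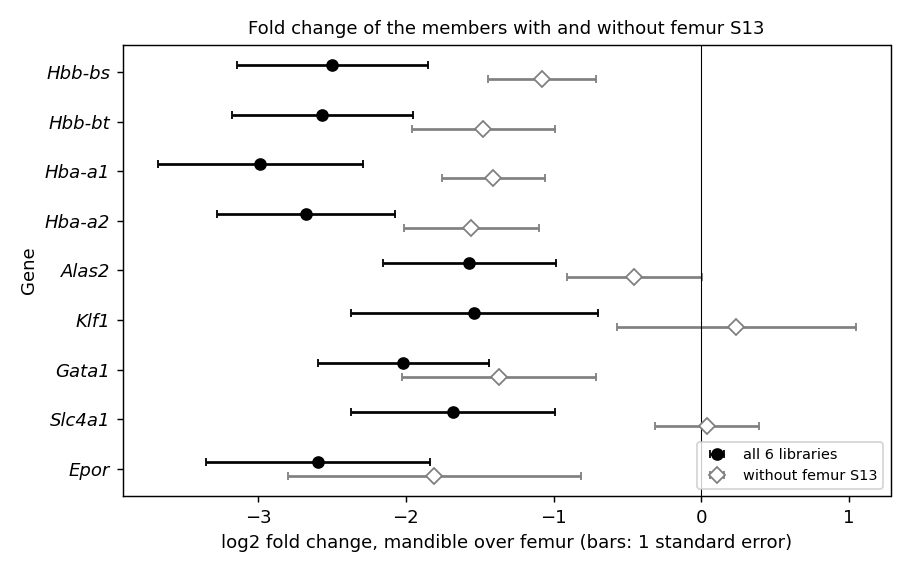
Log2 fold change of mandible over femur for each member, with bars of 1 standard error from the edgeR fit, for all 6 libraries (filled) and without femur S13 (open). The open points lie nearer 0 for all 9 genes, and those of Klf1 (0.24) and Slc4a1 (0.04) are above it.

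Per kilobase of gene length, the globins had the highest levels of the 9 members at both sites. In the femur the level was 244 ± 281 CPM per kilobase for Hba-a1 (SD, n = 3), 184 ± 200 for Hbb-bs, 96.1 ± 89.8 for Hba-a2 and 94.01 ± 86.8 for Hbb-bt. Below them followed Slc4a1 at 29.0 ± 35.0, Alas2 at 20.9 ± 19.5, Klf1 at 10.8 ± 13.3, Gata1 at 7.58 ± 4.73 and Epor at 4.69 ± 3.49. No step in that order exceeded the SDs of both neighbors. In the mandible the order began with Hbb-bs at 32.6 ± 9.88 CPM per kilobase and Hba-a1 at 30.8 ± 9.30, followed by Hbb-bt at 15.9 ± 8.80 and Hba-a2 at 15.04 ± 6.81. Slc4a1 had 9.05 ± 3.21, Alas2 7.03 ± 2.99, Klf1 3.71 ± 2.59, Gata1 1.87 ± 1.14 and Epor 0.775 ± 0.390. In that order the step from Hba-a1 to Hbb-bt and the step from Alas2 to Klf1 exceeded the SDs of both neighbors, and the other steps did not.

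The 4 globins together took a small part of every library. Their share of all counts was 0.0946% in femur S13 (95% Wilson interval 0.0933 to 0.0960), 0.0172% in S15 (0.0167 to 0.0178) and 0.0181% in S18 (0.0176 to 0.0186). In the mandible it was 0.00695% in S16 (0.00660 to 0.00732), 0.00522% in S19 (0.00492 to 0.00554) and 0.0102% in S23 (0.00969 to 0.0107). Every mandible library was below every femur library, and the mean difference was −2.11 on the log2 scale (exact two-sided permutation p = 0.1). It was −1.30 without femur S13.

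Ratios between members within a library do not depend on library size, and 8 were compared. Slc4a1 over the globin sum was 0.324, 0.283 and 0.207 in femur S13, S15 and S18 and 0.871, 0.703 and 0.379 in mandible S16, S19 and S23. All mandible ratios were higher, by 1.20 on the log2 scale, and by 1.34 without femur S13 (exact two-sided permutation p = 0.1, Benjamini-Hochberg adjusted 0.32 over the 8 ratios). Alas2 over the globin sum was between 0.0992 and 0.133 in the femur libraries and 0.321, 0.177 and 0.204 in the mandible. It was likewise higher in all mandible libraries, by 0.94 on the log2 scale and by 0.81 without femur S13, with the same exact permutation p = 0.1 and adjusted 0.32. With 3 libraries a site no ratio could reach a p under 0.05. Neither ratio was corrected for a trend of each library with gene length. In the edgeR fit with that correction the log2 fold change was −1.94 for Slc4a1, −1.48 for Alas2 and −1.79 to −2.33 for the globins. Slc4a1 then lay within the range of the globins, and Alas2 stayed nearer 0 than all of them.

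The other 6 ratios overlapped between the sites. Alpha-globin over beta-globin was 1.31, 1.29 and 1.04 in the femur and 0.848, 1.04 and 1.03 in the mandible (exact permutation p = 0.2). Hbb-bt over Hbb-bs ranged from 0.226 to 0.682 and Hba-a2 over Hba-a1 from 0.221 to 0.551, each with its lowest and highest value in the mandible (exact permutation p = 0.7 and 1). The globin sum over Gata1 was 33.03, 12.4 and 18.5 in the femur and 9.24, 19.4 and 27.6 in the mandible, so that it differed by more within a site than between sites (exact permutation p = 0.8). Klf1 over Gata1 was 1.26, 0.283 and 0.556 in the femur and 1.32, 1.47 and 0.897 in the mandible (exact permutation p = 0.2). Epor over Gata1 ranged from 0.315 to 0.621 in the femur and from 0.273 to 0.500 in the mandible (exact permutation p = 0.2).

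**Figure D3:**
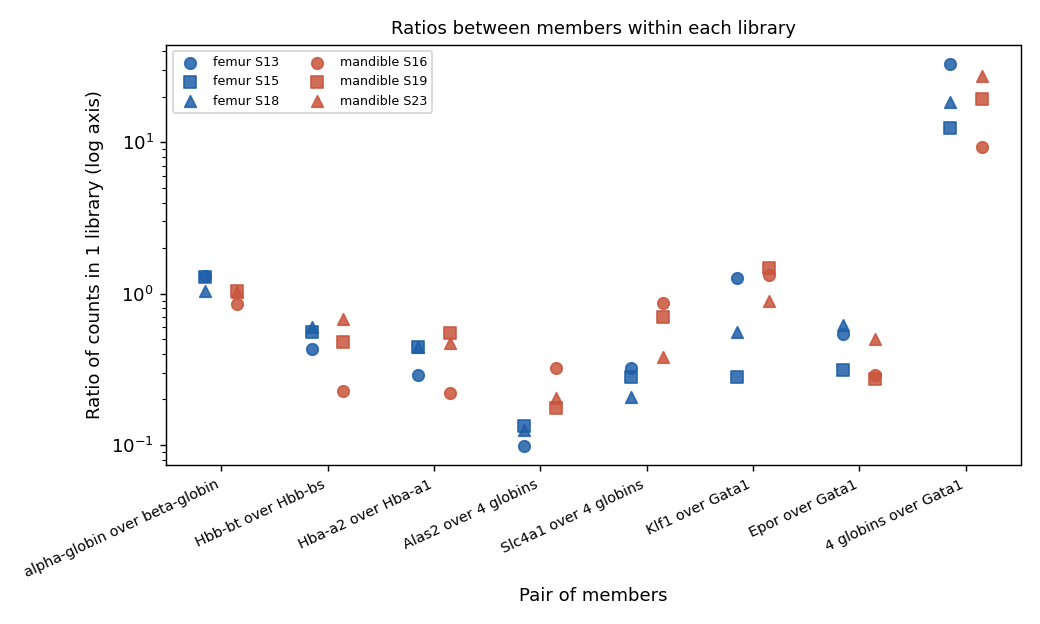
Ratio of the counts of 2 members, or of globin sums, within each library (log axis), blue for femur and red for mandible. Slc4a1 and Alas2 over the 4 globins are higher in every mandible library, and the other 6 ratios overlap.

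Other genes of the red cell program were read from 7 lists with 98 genes, of which 97 were in the table and 90 were tested. In the mandible 4 were called lower, or 4.44% against 1.3% of all tested genes, and 0 were called higher. A log2 fold change below 0 was found in 73 (81.1%, against 52.2% of all tested genes), and 61 were highest in femur S13 (67.8% against 17.6%). The median log2 fold change was −0.79, and −0.23 without femur S13, when 0 of them were called. Embryonic and minor globins gave almost no counts. None of the 7 was tested, Hbb-y and Hbb-bh2 had a count in no library, and Hbq1b, a theta-globin gene, had 60, 27 and 1 counts in the femur and 0, 0 and 6 in the mandible.

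Heme synthesis and transport (17 genes tested) had a median log2 fold change of −0.95, with 15 genes below 0 and 1 called. This was Alad, for the enzyme that joins aminolevulinic acid molecules, at 61.7, 14.3 and 19.3 CPM in the femur and 5.40, 8.97 and 7.55 CPM in the mandible (log2 fold change −2.12, SE 0.54, edgeR adjusted p = 0.0449). Alad was at −1.20 without femur S13 and was then not called. Among the genes of highest level, Alas1, the enzyme that other tissues use in place of ALAS2, had a log2 fold change of −0.75 (edgeR adjusted p = 0.300), the porphyrin transporter gene Tmem14c −1.22 (0.0580) and the heme enzyme gene Cpox −0.79 (0.598). Without femur S13 the median of the list was −0.42. Iron uptake and storage (9 genes tested) had a median of −0.21 and 0 calls. Its genes of highest level were the ferritin genes Fth1 (log2 fold change −0.10, edgeR adjusted p = 0.933) and Ftl1 (−0.50, 0.532) and the transferrin receptor gene Tfrc (−1.32, 0.178).

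Red cell membrane genes (19 tested) had a median log2 fold change of −1.45 and 0 calls, with 18 below 0 and 18 highest in femur S13. Their median was −0.25 without that library. Sptb, for beta-spectrin, stood at 366, 74.5 and 66.9 CPM in the femur and 70.9, 43.4 and 48.5 CPM in the mandible (log2 fold change −1.64, edgeR adjusted p = 0.155). Epb41, for protein 4.1, and Mpp1, for a scaffold protein of the membrane, had log2 fold changes of −0.37 and −0.51 (edgeR adjusted p = 0.579 and 0.496).

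Late red cell maturation (19 of 20 genes tested, Ahsp not analysed here) had a median log2 fold change of −1.09, with all 19 below 0 and 18 highest in femur S13, and −0.34 without S13. Trim10, a gene of terminal erythroid differentiation, stood at 63.2, 9.31 and 8.04 CPM in the femur and at 4.50, 1.99 and 1.83 CPM in the mandible. It was called lower (log2 fold change −3.27, SE 0.80, edgeR adjusted p = 0.0377), with −1.63 and no call without femur S13. The genes of highest level in this list, Mkrn1, Bnip3l and Prdx2, had log2 fold changes of −0.51, −0.61 and −1.14 and were not called.

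Erythroid regulators (15 tested) had a median log2 fold change of −0.23, with 9 below 0 and 1 called. Tal1, for a partner of GATA1 in one complex, stood at 62.8, 21.7 and 29.0 CPM in the femur and at 10.1, 7.98 and 5.49 CPM in the mandible (log2 fold change −2.27, SE 0.45, edgeR adjusted p = 0.0128). Tal1 was at −1.68 when femur S13 was left out, again without a call. The genes of highest level, Ikzf1, E2f2 and Nfe2, which other blood cells also express, had log2 fold changes of 0.07, −0.08 and −0.61 and were not called. The list for erythropoietin receptor signaling (11 tested, Kit, the receptor of stem cell factor, among them) had a median of 0.09, with 5 below 0, 0 calls and 1 highest in femur S13. Lyn (0.21), Pim1 (0.49) and Stat5b (0.09) had the highest levels among them, and their edgeR adjusted p was 0.844, 0.415 and 0.935.

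**Figure D4:**
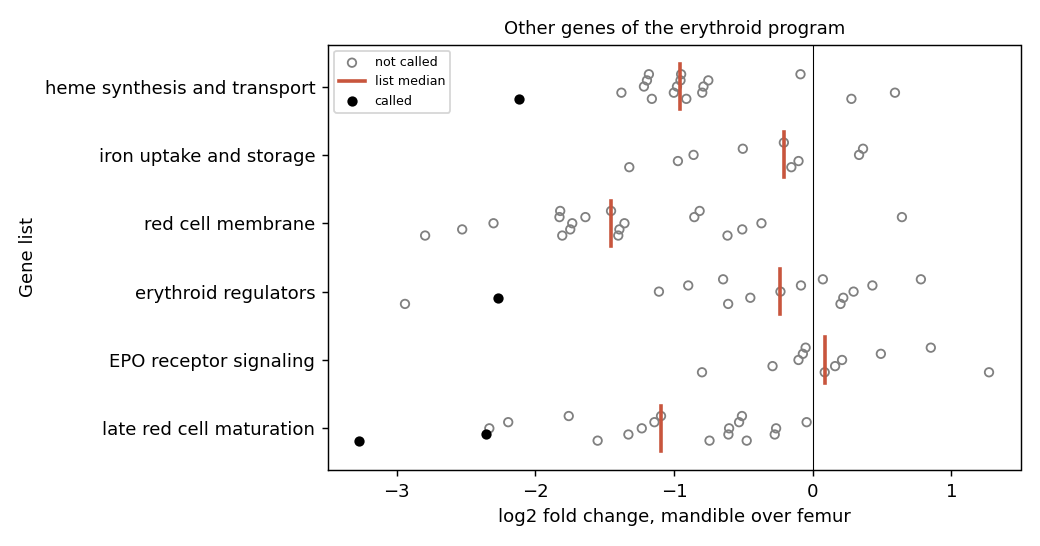
Log2 fold change of mandible over femur for the 90 tested genes of the erythroid lists, 1 point a gene, filled where called, with a red bar at the median of each list. The medians run from −1.45 for red cell membrane genes to 0.09 for erythropoietin receptor signaling, and the 4 called genes are all below 0.

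Markers of other cells that could pass the negative selection also differed between libraries. Erythroblast markers (9 genes in the table, all of which also stand in the lists above) summed to 652, 106 and 84.2 CPM in femur S13, S15 and S18 and to 154, 54.7 and 54.6 CPM in mandible S16, S19 and S23. They had a median log2 fold change of −1.81, and −0.24 without femur S13, and 1 of 9, Trim10, was called. Of these markers Cldn13 was at 0 in mandible S23. Erythroid progenitor markers (6 genes, all but Cd34 also in the lists above) summed to 637, 222 and 373 CPM in the femur. In the mandible they summed to 265, 225 and 138 CPM, with 0 of 6 called. Their log2 fold change was below 0 in 5 genes and 0.47 for Cd34. As in Slc4a1 and Klf1, the erythroblast sum was highest in femur S13 and next highest in mandible S16. The part of erythroid cells in the levels of the 9 members was not tested.

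Megakaryocyte and platelet markers summed to 915, 667 and 1034 CPM in the femur and to 115, 83.3 and 124 CPM in the mandible. Of 11 tested, 10 were called lower, among them Pf4, Ppbp, Itga2b, Gp1ba, Gp5, Gp6, Vwf, Treml1 and Clec1b, and 8 were called without femur S13. Pf4, platelet factor 4, the chemokine of platelet granules, went from 289, 92.4 and 242 CPM to 14.9, 9.35 and 17.04 CPM (log2 fold change −3.91, SE 0.45, edgeR adjusted p = 0.000464). Mast cell, basophil and eosinophil markers summed to 5389, 821 and 5699 CPM in the femur and to 547, 515 and 919 CPM in the mandible, and 3 of 13 were called lower, the eosinophil genes Prg2, Ear1 and Ear2. In this list 0 genes were called without femur S13. Prg2 and Ear2 overlapped between the sites, with femur S15 below mandible S23 for Prg2 and below mandible S16 for Ear2. Since Gata1 and Tal1 are also expressed in megakaryocytes, and Gata1 in eosinophils, these sums stand beside their values, and their part in them was not tested.

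Neutrophil markers summed to 33275, 3868 and 24122 CPM in the femur and to 7010, 10422 and 3988 CPM in the mandible, with S100a8 called lower (1 of 10). Macrophage markers, among them those of the macrophages on which erythroblasts mature, summed to 326, 117 and 269 CPM against 141, 148 and 105 CPM, with Vcam1 called lower (1 of 11). B cell markers summed to 17.2 to 33.8 CPM over the 6 libraries, with Ebf1 called higher (1 of 6 tested). Of the B cell markers tested, 3 had a log2 fold change below 0, and the median was 0.08. Without femur S13, 0 genes of the neutrophil, macrophage and B cell lists were called. In the mandible markers of mesenchymal and bone cells summed to 7448 to 11684 CPM, against 333 to 422 CPM in the femur, and 8 of 10 were called higher (Col1a1, Col1a2, Sp7, Runx2, Bglap, Alpl, Pdgfra and Pdgfrb). The other 2, Cxcl12 and Lepr, had log2 fold changes below 0, the lower of them −1.42, and were not called. Over all tested genes, 5.18% were called in either direction and 1.3% were called lower. Tooth epithelium markers reached 5757 to 11274 CPM, against 0.221 to 2.95 CPM in the femur, with 5 of 6 called higher (Amelx, Ambn, Enam, Krt5 and Krt14). The part of these cells in the lower globin levels of the mandible was not tested.

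**Figure D5:**
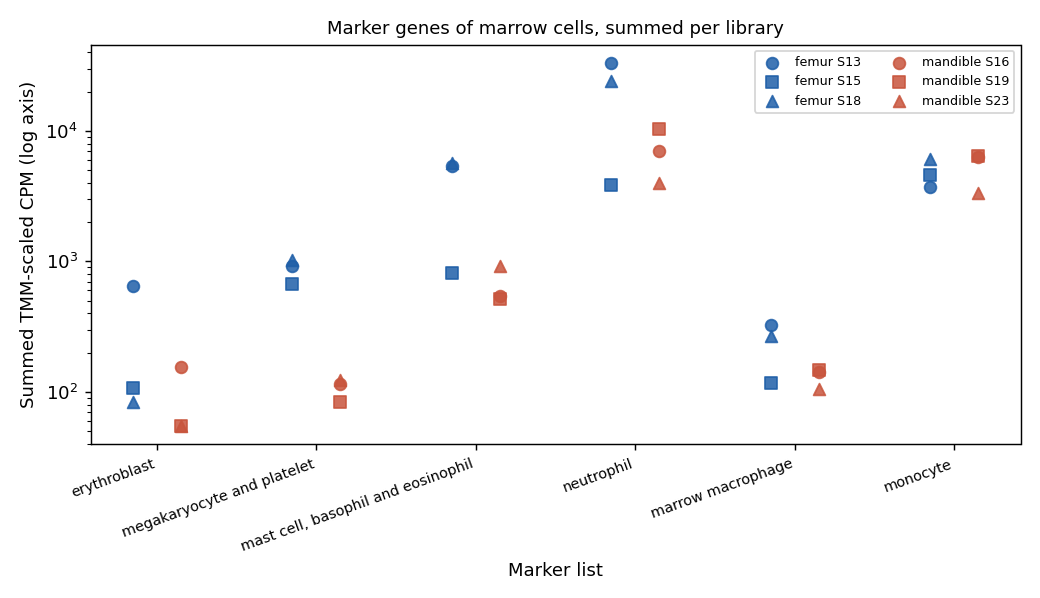
Summed TMM-scaled CPM (log axis) of 6 lists of marker genes in each library, blue for femur and red for mandible. The erythroblast sum is highest in femur S13 (652 CPM), the megakaryocyte sum separates the sites in all libraries, and the monocyte sums overlap.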

How the data were processed

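Bulk RNA-seq of 3 femur-derived and 3 mandibular-derived monocyte libraries was used. The authors trimmed paired-end reads, mapped them with HISAT2 2.1.0 to a genome named GRCm38 and counted them per gene with featureCounts, whose version, strand setting and treatment of reads with several positions are not given in the sources used here. The deposited values are raw counts, and a deposited column of other kind holds the gene length. The coordinates of the table lay inside the GENCODE M21 gene for 2979 of 52029 shared identifiers, so member positions come from M21, matched by Ensembl identifier. No 2 libraries held the same counts.

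edgeR 4.0.16 in R 4.3.3 compared the sites by its quasi-likelihood test over all genes, without covariates, after filterByExpr (10 counts, 15 in total) and TMM scaling, with a prior count of 0.125. A call needed p below 0.05 after Benjamini-Hochberg adjustment and a 2-fold change. DESeq2 1.42.0, limma 3.58.1 (voom), other scalings and filters, a length correction (loess, span 0.4) and leaving out each library were alternatives. Ratios and shares were tested with exact two-sided permutations (scipy 1.17.1). The scripts were tested on simulated data. The members and lists were chosen with earlier results of these data known. Named were the 9 members, in each list up to 3 tested genes of highest mean CPM and up to 3 called genes, called markers, and for the globins and Gata1 the 5 genes of mean CPM of at least 1 outside all lists with the nearest pattern. Some genes that meet this rule are left out here. Cldn13, Cd34, Hbq1b, Hbb-y and Hbb-bh2 were named after their values were seen. Promoters came from RefSeq (GRCm38.p6).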

Additional observations from a re-analysis of the deposited data

How the results depend on the processing

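The alternatives reuse the same libraries, so their results are not independent of each other. Of the 134 log2 fold changes that the 9 members had under alternatives, 132 were below 0. The exceptions were Klf1 (0.24) and Slc4a1 (0.040) without femur S13; over the libraries left out in turn Klf1 ranged from −2.28 to 0.24 and Slc4a1 from −2.15 to 0.040. Of 60 results of the 4 globins, 22 lost the call, and 13 results of the other members gained one. Against 4 members called, 2 were called with no normalization factors, 9 with no filter beyond 1 count, 0 with the length correction, and 0 to 7 when each library was left out. Over all tested genes, 938 of 18114 were called in the main fit. In these settings it was 792 of 18114, 1590 of 42225, 828 of 18114, and 434 to 1565 genes. The 7 members came without femur S15, where 1565 of 18742 genes were called. The globins then had an edgeR adjusted p of 0.00445 to 0.00582. Against 4 genes of the erythroid lists called, 1 was called with no normalization factors, 26 with every gene with a count, 7 with at least 10 counts in every library, 10 with DESeq2, 2 with limma-voom, and 0 to 18 when each library was left out. Of all tested genes, DESeq2 called 1746 of 22027 and limma-voom 753 of 18114. With at least 10 counts in every library it was 811 of 12919. The cause was not tested. DESeq2 gave no adjusted p for Slc4a1. The log2 difference in globin share was −1.01 with the counts of the other 5 members in place of the library total, an alternative chosen after seeing the data. No paired analysis was possible because the labels give no animal for a library.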

Other observations

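Outside the lists, the 5 genes whose levels over the 6 libraries were nearest to the mean pattern of the 4 globins were Rpl17-ps3, Igkv14-126, H4c16, Gm20632 and H4c17. Likeness was measured as the root mean square difference of centred log2 CPM, which was 0.4004 to 0.536 for them, against a median of 1.52 over 15960 genes and 0.493 for Epor, 0.611 for Alas2, 0.684 for Gata1, 0.792 for Slc4a1 and 0.980 for Klf1. H4c16, a histone H4 gene, stood at 425, 82.2 and 204 CPM in femur S13, S15 and S18 and at 31.9, 49.7 and 67.8 CPM in mandible S16, S19 and S23. Igkv14-126, an immunoglobulin kappa variable gene, stood at 266, 43.7 and 111 CPM in the femur and at 20.6, 15.1 and 18.4 CPM in the mandible. Copies of these histone, immunoglobulin and ribosomal protein genes share sequence, so their counts are uncertain. Nearest to Gata1 were Zfp808, Morn1, Tlcd4, Slc6a20a and H2bc14, at 0.306 to 0.412 against a median of 1.30. These are descriptions over 6 libraries that share femur S13 as their highest.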
